A study of Mus musculus with 4 samples.

Results

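The genes described here are 42 genes of the synaptic vesicle cycle, taken by symbol from a table of 27178 mouse genes, and all 42 were found there. It holds RNA-seq of crest-derived cells sorted from embryonic guts of Wnt1-tdT mice at 11.5 days post coitum. In these mice tdT, a red fluorescent reporter under Wnt1 control, marks cells descended from the neural crest, not neurons alone, and cells with the reporter were sorted after collagenase and dispase treatment. The wavefront group (2 libraries) holds cells from the leading edge of the migrating crest, and the trailing group (2 libraries) holds cells lying 1 to 1.5 mm behind it. Both groups share the same reporter, stage and sort. The labels do not say whether libraries came from separate embryos or from pools, so the spread behind each p-value is that of these libraries alone and may be technical.

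Neurons release transmitter by fusing vesicles with the plasma membrane. A SNARE complex of syntaxin, SNAP-25 and synaptobrevin pulls the membranes together, synaptotagmins sense the calcium that triggers fusion, and Munc13, CAPS and complexin set the complex ready. NSF and its SNAP adaptors take the spent complex apart, and dynamin, amphiphysins and endophilin recover the membrane. Some of these proteins belong almost only to neurons and endocrine cells, while others, such as NSF and alpha-SNAP, serve membrane traffic in every cell. Enteric neurons differentiate from the crest cells while migration is still under way.

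The start regions of 5 members are shown as examples. Syt1 and Stx1a fell at the wavefront in the count test, and Napa was near 0 change. Syn1 and Unc13a carry letters of the RE1 element and had 0 to 2 wavefront reads in a library. Whether any of these letters bear on the reads was not tested. Each is the 300 bases from 250 before to 50 after the annotated start, 5' to 3' on the gene's strand, from RefSeq (GRCm38.p6). For Syt1 the first of its listed windows is given. Capitals mark matches, on either strand, to the 6 motifs searched. These are the CRE bound by CREB, spelled TGACGTCA, and the left arm of RE1, the element bound by the repressor REST, spelled TTCAGCACC. The right arm of RE1 is GGACAGCGC. The E-box is spelled CAGCTG. The GC box, bound by Sp1, is spelled GGGCGG. The TATA box is spelled TATAAA.
Syt1: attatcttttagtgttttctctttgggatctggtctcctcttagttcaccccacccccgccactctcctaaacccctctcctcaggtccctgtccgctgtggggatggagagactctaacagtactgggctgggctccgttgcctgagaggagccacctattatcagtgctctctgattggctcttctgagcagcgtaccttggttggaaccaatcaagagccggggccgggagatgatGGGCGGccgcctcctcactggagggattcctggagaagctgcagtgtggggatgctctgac
Stx1a: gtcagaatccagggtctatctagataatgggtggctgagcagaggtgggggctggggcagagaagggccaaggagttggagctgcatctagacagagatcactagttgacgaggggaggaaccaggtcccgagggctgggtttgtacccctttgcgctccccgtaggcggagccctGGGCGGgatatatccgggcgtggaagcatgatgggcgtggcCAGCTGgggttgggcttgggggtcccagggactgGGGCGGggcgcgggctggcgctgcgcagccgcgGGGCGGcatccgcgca
Syn1: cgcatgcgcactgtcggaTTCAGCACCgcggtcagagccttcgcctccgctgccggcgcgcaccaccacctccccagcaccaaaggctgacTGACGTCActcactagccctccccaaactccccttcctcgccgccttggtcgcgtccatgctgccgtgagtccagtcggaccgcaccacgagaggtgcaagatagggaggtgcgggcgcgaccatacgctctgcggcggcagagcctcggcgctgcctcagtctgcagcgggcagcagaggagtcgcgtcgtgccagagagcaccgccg
Unc13a: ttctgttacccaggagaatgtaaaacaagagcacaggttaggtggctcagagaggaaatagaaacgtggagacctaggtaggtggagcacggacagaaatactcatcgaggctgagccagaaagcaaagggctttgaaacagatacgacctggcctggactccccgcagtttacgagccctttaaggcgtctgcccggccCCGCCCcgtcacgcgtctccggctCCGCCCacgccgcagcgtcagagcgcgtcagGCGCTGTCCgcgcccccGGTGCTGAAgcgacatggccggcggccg
Napa: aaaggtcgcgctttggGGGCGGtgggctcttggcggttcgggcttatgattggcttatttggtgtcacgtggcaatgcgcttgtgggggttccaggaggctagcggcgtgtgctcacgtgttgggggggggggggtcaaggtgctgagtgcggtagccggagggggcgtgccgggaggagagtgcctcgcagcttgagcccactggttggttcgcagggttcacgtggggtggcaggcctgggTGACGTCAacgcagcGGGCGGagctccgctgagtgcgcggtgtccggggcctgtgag

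These windows lie at chr10:109010926-109011225 (minus strand), chr5:135023232-135023531 (plus), chrX:20920869-20921168 (minus), chr8:71671708-71672007 (minus) and chr7:16098330-16098629 (plus), in the order printed. RefSeq windows were found for 33 of the 42 members, 40 windows in all. The left arm of RE1 was in the windows of Syn1 and Unc13a, and the right arm in that of Unc13a. Over all 32851 windows of this length, 0.371% held the left arm and 0.405% the right arm. A CRE was in the windows of Syn1, Napa and Sh3gl2 (7.5% of member windows, 1.79% of all). A GC box was in 65% of member windows and 35.7% of all, an E-box in 30% and 16.3%, and a TATA box in 2.5% and 13.6%. A match is a description of letters and not of a bound site.

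The authors deposited counts-per-million (CPM), from which whole reads could be recovered. Libraries held 511074 and 447224 reads (trailing 1 and 2) and 535636 and 258457 reads (wavefront 1 and 2). Wavefront 2 stands apart, with 55.5% of its reads in ribosomal RNA against 15.6 to 26.1% in the others, which left it 114972 other reads. It also held 110 reads of red blood cell genes against 0 to 2 elsewhere. The 7 enteric crest markers (among them Ret, Ednrb, Sox10, Erbb3, Foxd3 and Gfra1) had reads in all 4 libraries. They summed to 1532 and 1033 reads at the trailing position and 2069 and 281 at the wavefront. In reads-per-million of the TMM-adjusted library size, these sums were 2901 and 2165 against 3475 and 1642. Of the 42 members, 39 had a read, and together they took 0.0866% of all reads. Rph3a, Sv2c and Slc17a6, the vesicular glutamate transporter VGLUT2, had none. A count of 0 in a library allows up to 3 reads, or 5.80, 6.64, 5.52 and 11.5 CPM in trailing 1 and 2 and wavefront 1 and 2, for counting error only.

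Among the members with enough reads to test, the calcium sensor Syt1 and the SNARE protein Stx1a were lower at the wavefront, and 7 members did not pass. Recovered reads were tested with edgeR (quasi-likelihood, Benjamini-Hochberg adjusted over 5759 genes, threshold 0.05), which took in 9 members, of which 2 fell and 0 rose. Over all genes tested it called 1.74%, 1.34% as lower and 0.399% as higher at the wavefront. Syt1, Stx1a, Napb and Cadps cleared the test's read filter only through the trailing libraries, so the count of 2 is not support for the group as a whole. The planned test for CPM, limma on log2(CPM + 1), tested 35 members and called 0 of them and 0 of 12519 genes (0% of all), with a smallest adjusted p of 0.607 for a member. At an unadjusted p under 0.05 limma had 12 members lower and 0 higher, where 5.78% of all genes were lower and 1.07% higher. DESeq2 gave an adjusted p for 6 members and called 0 (0.364% of its genes), with 14 genes called in all. From the authors' deposited table, whose p-values were adjusted here, 0 of 39 members were called (0.0891% of genes). Fewer neurons among the sorted cells and less RNA per neuron cannot be told apart in such bulk libraries.

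**Figure D1:**
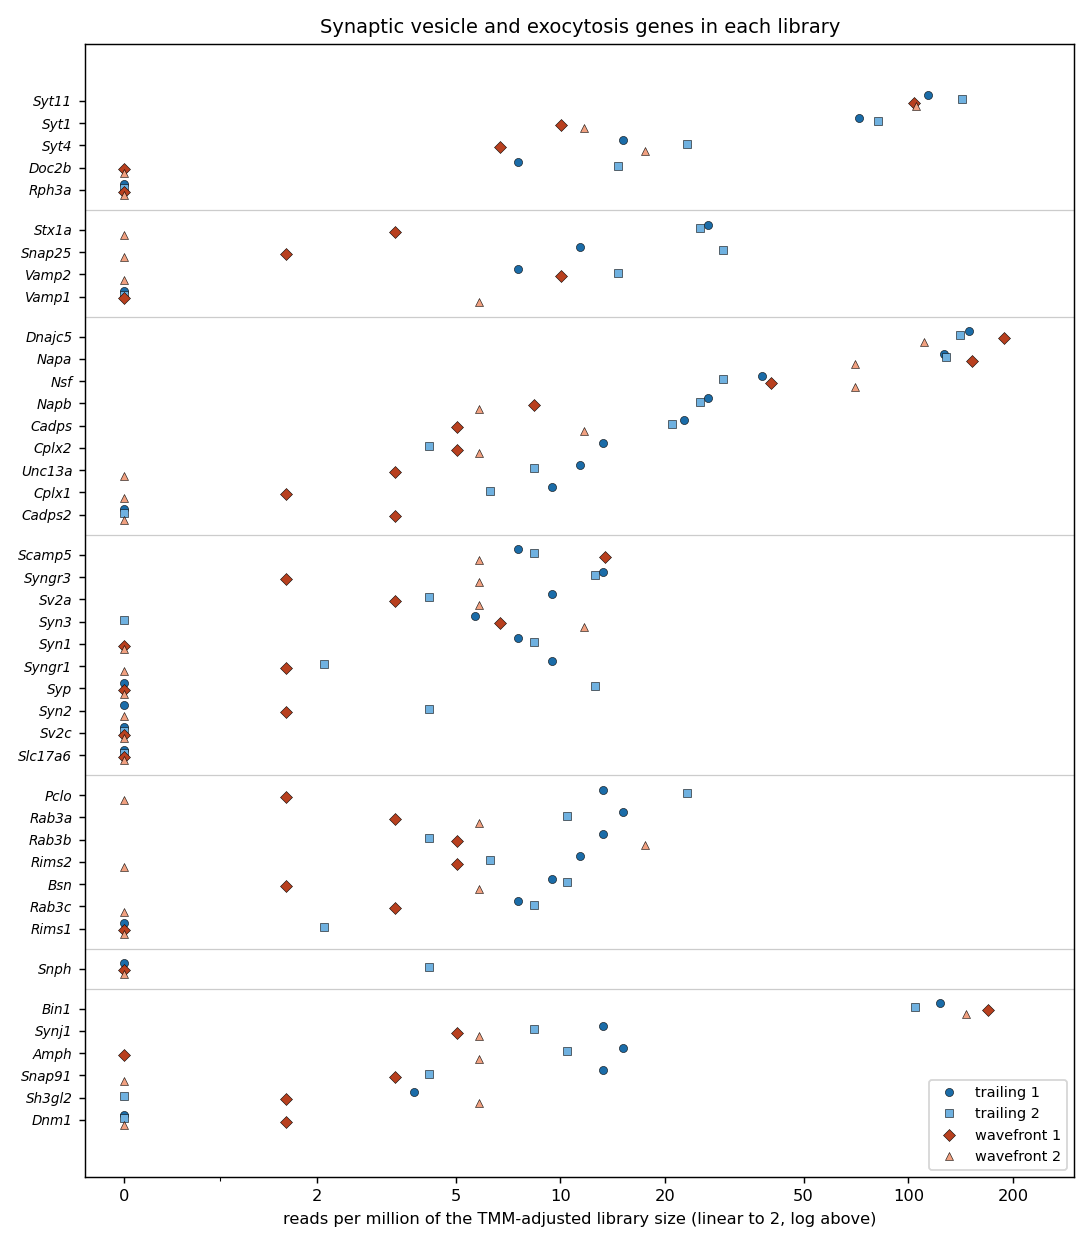
Level of each of the 42 genes in each library, in reads-per-million of the TMM-adjusted library size (x axis, linear to 2 and logarithmic above), grouped by role from calcium sensors (top) to endocytosis (bottom). Syt1 and Stx1a have both trailing libraries far to the right of both wavefront libraries, while Dnajc5 and Napa have them mixed.

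Syt1 encodes synaptotagmin 1, the fast calcium sensor of vesicle fusion (chromosome 10, 108497650 to 109010982, GRCm38). Trailing 1 and 2 held 38 and 39 reads of it, and wavefront 1 and 2 held 6 and 2. Both wavefront libraries lay well under both trailing libraries, at 10.9 ± 1.14 against 76.9 ± 6.91 scaled CPM (reads-per-million of the TMM-adjusted library size; mean ± SD, n = 2 each). The log2 fold change, wavefront over trailing, was -2.84 ± 0.49 SE (edgeR adjusted p = 0.000147). In limma the same change was -2.98 ± 0.46 (limma adjusted p = 0.607). Without wavefront 2, the library rich in ribosomal RNA, it was -2.85 ± 0.52 (edgeR adjusted p = 1.37e-05). Without wavefront 1 the call was lost at -2.68 ± 0.79 (edgeR adjusted p = 0.0529), and DESeq2 on the same reads gave -2.83 with an adjusted p of 0.2. The authors' deposited table gives -1.51 for Syt1 with a p of 0.00104, which is 0.61 after adjustment here. The annotated span of Syt1 holds Gm5136, on the same strand, which had 6 reads in all.

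The other calcium sensors did not show a common size of change. Syt11, a synaptotagmin that does not bind calcium in the usual way and is found beyond neurons, had 60 and 68 trailing against 62 and 18 wavefront reads. Its trailing libraries were above its wavefront libraries in scaled CPM, at 128 ± 20.4 against 105 ± 0.746, but the change of -0.29 ± 0.31 did not pass (edgeR adjusted p = 0.86). Syt4, a synaptotagmin of dense-core vesicles, had 8 and 11 against 4 and 3 reads, and its groups overlapped in scaled CPM. Doc2b, a high-affinity calcium sensor of spontaneous release, had 4 and 7 trailing reads and 0 and 0 at the wavefront. With the wavefront group set to the floor of 3 reads, this is 2.80-fold lower, leaving out counting error in the trailing reads.

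The plasma-membrane SNAREs of neurons were low at the wavefront, and of them Stx1a was the 1 with enough reads to test. Stx1a encodes syntaxin 1A (chromosome 5, 135023482 to 135051100, GRCm38). It had 14 and 12 trailing against 2 and 0 wavefront reads, so the groups did not overlap. Trailing reads over wavefront reads, corrected for library size, gave a ratio of 9.91, with a 95% exact binomial counting interval of 2.48 to 86.2. The log2 fold change was -3.19 ± 0.86 (edgeR adjusted p = 0.0343), and in limma the change was -3.68 ± 0.92 (limma adjusted p = 0.68). The call needed all 4 libraries. In edgeR it was at -3.25 without trailing 2 (adjusted p = 0.443) and -2.81 without wavefront 2 (0.138). Without wavefront 1, which leaves 0 wavefront reads and so no interpretable fold, the edgeR adjusted p was 0.319. Without trailing 1 the gene was under the filter. The call was also lost, at a fold change of -3.18, when ribosomal RNA reads were left out of the library sizes (edgeR adjusted p = 0.0811), and DESeq2 gave no adjusted p for it.

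Snap25, the other plasma-membrane SNARE, had 6 and 14 trailing reads against 1 and 0, a read ratio, corrected for library size, of 15.3 (counting interval 2.44 to 632). It was under the filter, and passed in edgeR only with no filter (adjusted p = 0.04), where Syt1 and Stx1a also passed. Vamp2, synaptobrevin 2 of the vesicle membrane, had 4 and 7 trailing against 6 and 0 wavefront reads, and its groups overlapped. Vamp1 had a single read, in wavefront 2. Summed over these 4 SNARE genes, trailing 1 and 2 held 45.5 and 69.2 scaled CPM and wavefront 1 and 2 held 15.1 and 5.84. No other role group had a larger ratio between its trailing and wavefront sums (4.35), Snph with 2 reads in all set aside.

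Of the 9 genes that assemble, prime and recycle the SNARE complex, 5 were tested and 0 passed. At an unadjusted p under 0.05, 2 (Napb and Cadps) were lower in edgeR and 4 of 8 in limma (also Cplx1 and Unc13a), where 5.92% of all genes were lower in edgeR and 5.78% in limma. Napb and Cadps are among the 4 that cleared the filter only through the trailing libraries. Dnajc5, the vesicle chaperone cysteine string protein, had 79 and 67 trailing against 112 and 19 wavefront reads (log2 fold change 0.13 ± 0.31, edgeR adjusted p = 0.947). Napa, alpha-SNAP, had 67 and 61 against 91 and 12 reads (-0.05 ± 0.32, edgeR adjusted p = 0.98). Nsf, the ATPase that pulls SNARE complexes apart, had 20 and 14 against 24 and 12 reads, and its wavefront libraries were the higher ones (0.54 ± 0.42, edgeR adjusted p = 0.774). In Dnajc5 and Napa wavefront 1 lay above both trailing libraries in scaled CPM and wavefront 2 below them.

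Napb, beta-SNAP, the brain form of the adaptor, had 14 and 12 trailing reads against 5 and 1 and did not pass (-1.70 ± 0.67, edgeR adjusted p = 0.316). Cadps, the CAPS priming factor of dense-core vesicles, had 12 and 10 against 3 and 2 (-1.68 ± 0.73, edgeR adjusted p = 0.406). In both genes each trailing library exceeded each wavefront library. The difference between Napb and Napa was not tested.

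Munc13-1 and the complexins had few reads. Unc13a, the Munc13-1 gene, had 6 and 4 trailing against 2 and 0 wavefront reads, a read ratio, corrected for library size, of 3.81 (counting interval 0.813 to 35.8). Cplx1 had 5 and 3 against 1 and 0. Cplx2 had 7 and 2 against 3 and 1, with overlapping groups. These complexins clamp and then promote fusion of the assembled SNARE complex. Cadps2 had 2 reads, both in wavefront 1.

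Proteins of the vesicle membrane and surface had 53 trailing and 22 wavefront reads over 10 genes, and none was tested by counts. Syn1, the vesicle phosphoprotein synapsin 1, had 4 and 4 trailing reads and 0 and 0 at the wavefront. Against the floor of 3 reads this is 2.03-fold lower, leaving out counting error in the trailing reads. Syp, the classic vesicle marker synaptophysin, had 0 and 6 against 0 and 0, so all of its reads came from trailing 2. Syngr3, a synaptogyrin, had 7 and 6 against 1 and 1, and Syngr1 had 5 and 1 against 1 and 0. In both synaptogyrins the groups did not overlap. Sv2a, the vesicle glycoprotein SV2A, had 5 and 2 against 2 and 1, and Scamp5 had 4 and 4 against 8 and 1, both with overlapping groups. Syn3 ran the other way, with 3 and 0 trailing against 4 and 2 wavefront reads, and it was the 1 member under the filter with 5 or more reads whose wavefront libraries both lay above both trailing libraries. Syn2 had 3 reads in all.

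Rab3 GTPases and the active zone scaffolds, which tether vesicles at release sites, had 68 trailing and 17 wavefront reads over 7 genes. Pclo, the giant scaffold piccolo, had 7 and 11 trailing reads against 1 and 0. Bsn, its relative bassoon, had 5 and 5 against 1 and 1, and Rims2, a Rab3-binding scaffold, had 6 and 3 against 3 and 0. All 3 scaffolds had trailing libraries above wavefront libraries. Rab3a, the main vesicle Rab, had 8 and 5 against 2 and 1, and Rab3c had 4 and 4 against 2 and 0, also without overlap. Rab3b had 7 and 2 against 3 and 3, and its groups overlapped. Rims1 had 1 read.

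Among genes that recover vesicle membrane, Bin1 was the 1 with enough reads to test and did not pass. Bin1, which encodes the broadly expressed amphiphysin 2, had 65 and 50 trailing against 101 and 25 wavefront reads, or 114 ± 12.9 against 158 ± 16.6 scaled CPM (0.49 ± 0.31, edgeR adjusted p = 0.66). Both wavefront libraries lay above both trailing libraries. Its neuronal relative Amph, amphiphysin 1, had 8 and 5 against 0 and 1, a read ratio, corrected for library size, of 9.91 (counting interval 1.49 to 421). The difference between Bin1 and Amph was not tested. Snap91, the clathrin adaptor AP180, had 7 and 2 against 2 and 0, and Synj1, the phosphatase synaptojanin 1, had 7 and 4 against 3 and 1, both without overlap. Sh3gl2, endophilin A1, had 4 reads in all and Dnm1, the neuronal dynamin, 1 read. Snph, syntaphilin, which anchors axonal mitochondria, had 2 reads, both in trailing 2.

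**Figure D2:**
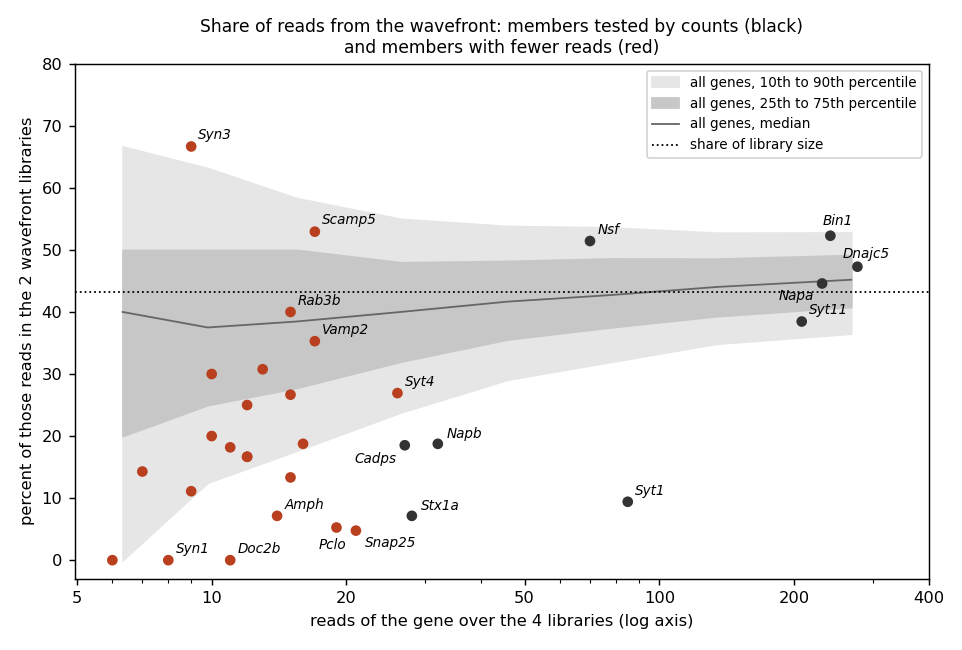
Percent of a gene's reads that came from the 2 wavefront libraries (y axis) against its reads over all 4 libraries (x axis, logarithmic), for members with 5 or more reads; grey bands give the spread of all genes of like read number, and the dotted line is the wavefront's share of library size, 43.3%. Black points are members tested by counts and red points members under the filter; Syt1 (9.41%) and Stx1a (7.14%) lie under the bands, and Napa (44.6%) lies on the median line.

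The 33 members under the filter can be read only by their counts. They summed to 129 and 117 trailing against 55 and 18 wavefront reads, or 244 and 245 scaled CPM against 92.4 and 105. Of these members 23 had 5 or more reads over the 4 libraries, 7 had 1 to 4 reads and 3 had none. No wavefront read was found for 3 of the 23 (Syn1, Syp and Doc2b), against 2.89% of genes of like depth. Among the 23, 17 were at least 2-fold lower at the wavefront in reads over library size, where 23.5% of the 5113 genes of like depth were. In 1 of the 23 the wavefront was at least 2-fold higher, against 8.98% of those genes. Both trailing libraries exceeded both wavefront libraries in 15 of the 23 (23.8% of genes of like depth), and the reverse held in 1 of 23 (12.8%). The median share of a gene's reads that came from the wavefront was 18.2% for the 23 members and 40% for genes of like depth. In a check chosen after seeing the data, leaving out 1 library in turn, the count of 17 became 13 without trailing 1 (28.4% of genes), 18 without trailing 2 (21.6%), 15 without wavefront 1 (32.3%) and 17 without wavefront 2 (30.5%). The members were proposed with results of these libraries known, so these counts describe the group and are no independent evidence.

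Among the 9 members tested by counts, trailing libraries lay above wavefront libraries in 5 (20.9% of all genes tested) and below them in 2 (18.3%). In 4 of the 9, those that cleared the filter only through the trailing libraries, the wavefront was at least 2-fold lower (5.43% of genes) and in 0 at least 2-fold higher (2.1%), and none lacked wavefront reads (0.0174% of genes did). The median log2 fold change of the 9 was -0.29, against 0.01 over all genes tested, and 6 of 9 lay below 0 (49.4% of all genes). With scaling by library size alone the median of all genes shifted to -0.20 and that of the 9 members to -0.53. In limma 30 of 35 members lay below 0 (70.8% of all genes), with a median of -1.65 against -0.35 for all genes.

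**Figure D3:**
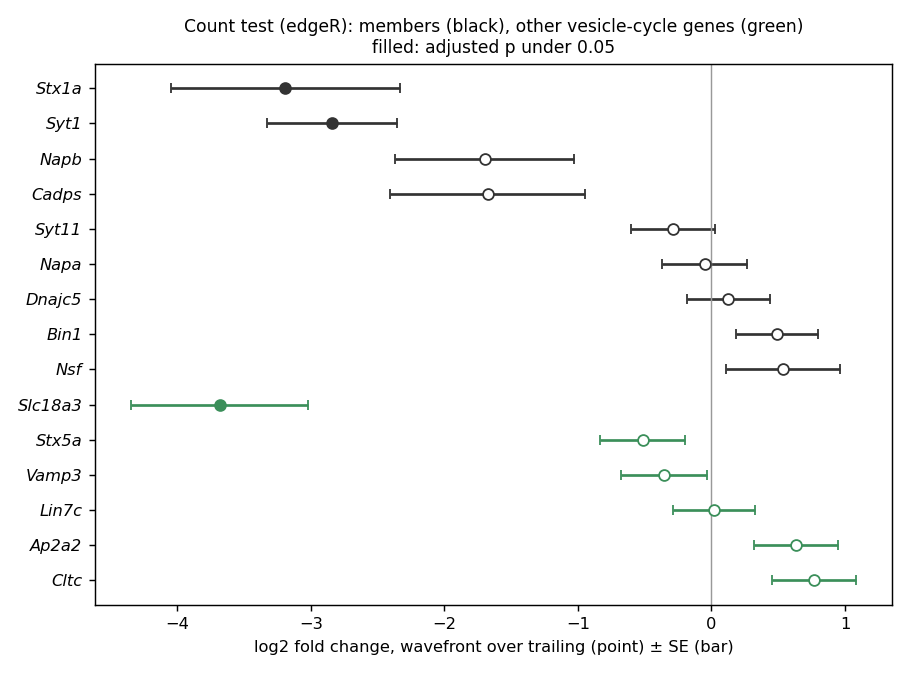
Log2 fold change, wavefront over trailing, with its standard error (x axis) for the 9 members tested by counts (black) and 6 other vesicle-cycle genes (green); filled points passed the threshold. Syt1, Stx1a and Slc18a3 are filled and left of 0, and all cleared the read filter only through the trailing libraries. The values of Stx1a and Slc18a3 rest on 2 and 3 wavefront reads.

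Levels of different genes were compared per kilobase of annotated exon (GENCODE M21). In the trailing libraries Napa (33.6 scaled CPM per kilobase), Bin1 (27.7), Syt11 (24.6) and Dnajc5 (20.9) were the highest of the 42. They gave 63% of all reads of the members. Stx1a (9.69) and Syt1 (9.22) came next, ahead of Syngr3 (6.24) and Rab3a (5.76). At the wavefront the first 4 levels were 29.4, 38.3, 20.1 and 21.5 in the same order of genes, while Syt1 was at 1.31 and Stx1a at 0.63. Of these neighbours in the trailing order, Bin1 and Syt11, Syt11 and Dnajc5, Stx1a and Syt1, and Syngr3 and Rab3a each differed by less than the larger SD of the pair.

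Other genes of vesicle traffic were listed by function: 58 of neuronal vesicles and release, 34 of clathrin and endocytosis, and 38 of SNAREs and secretory carriers used in general secretion, of which 125 were in the table. In the neuronal list 8 were tested by counts, 2 fell, 0 rose and 6 did not pass (median log2 fold change -0.42). Of all genes tested, 1.34% were called lower. In limma 9 of 39 were lower and 0 higher at an unadjusted p under 0.05, where 5.78% and 1.07% of all genes were. In limma 0 of them passed after adjustment. Slc18a3, the vesicular acetylcholine transporter, had 24 and 30 trailing against 2 and 1 wavefront reads, a read ratio, corrected for library size, of 13.7 (counting interval 4.45 to 68.6). It passed with an edgeR adjusted p of 0.000282, but it cleared the read filter only through the trailing libraries. The log2 fold change was -3.68, and the call was lost at -3.42 without trailing 2 (edgeR adjusted p = 0.0501) and at -3.13 without wavefront 1 (0.0712). Slc18a3 lies inside the gene Chat, on the same strand, and Chat had 6 reads in all. Lin7c, a scaffold of many cell types, had 104 and 65 against 103 and 28 and was at 0.02 ± 0.31 (edgeR adjusted p = 0.996), with a sign that changed in 6 of 13 alternative settings, library size scaling among them.

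In the endocytosis list 17 were tested by counts and 0 passed (median -0.19, smallest edgeR adjusted p = 0.21). At an unadjusted p under 0.05, 3 (Picalm, Cltc and Ap2a2) were higher in edgeR, where 3.98% of all genes were. In limma 2 of 31 (Fcho1 and Pacsin1) were lower and 0 higher, where 5.78% and 1.07% of all genes were. Its members with most reads were Ap2a2, an AP-2 adaptor subunit, with 123 and 83 trailing and 202 and 49 wavefront reads (0.63 ± 0.31, edgeR adjusted p = 0.493), and Cltc, the clathrin heavy chain, with 102 and 66 against 141 and 59 (0.77 ± 0.32, edgeR adjusted p = 0.351). In the general secretion list 17 were tested and 0 passed (median -0.28, smallest edgeR adjusted p = 0.324). At an unadjusted p under 0.05, 1 (Snap47) was lower in edgeR and 2 of 34 (Snap47 and Stx2) in limma. Of all genes 5.92% were lower in edgeR and 5.78% in limma, so these counts are near the share of all genes. Stx5a, a Golgi syntaxin, was at -0.51 ± 0.32 (edgeR adjusted p = 0.658) and Vamp3, the SNARE of recycling endosomes, at -0.36 ± 0.32 (edgeR adjusted p = 0.816). Summed over the endocytosis list, the libraries held 1568 and 1329 scaled CPM (trailing 1 and 2) and 1617 and 1437 (wavefront 1 and 2), while the neuronal list held 807 and 830 against 566 and 608 and the general secretion list 1189 and 1167 against 959 and 1069. The neuronal and the general secretion lists both had wavefront sums under both trailing sums, and the endocytosis list had sums that overlapped.

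**Figure D4:**
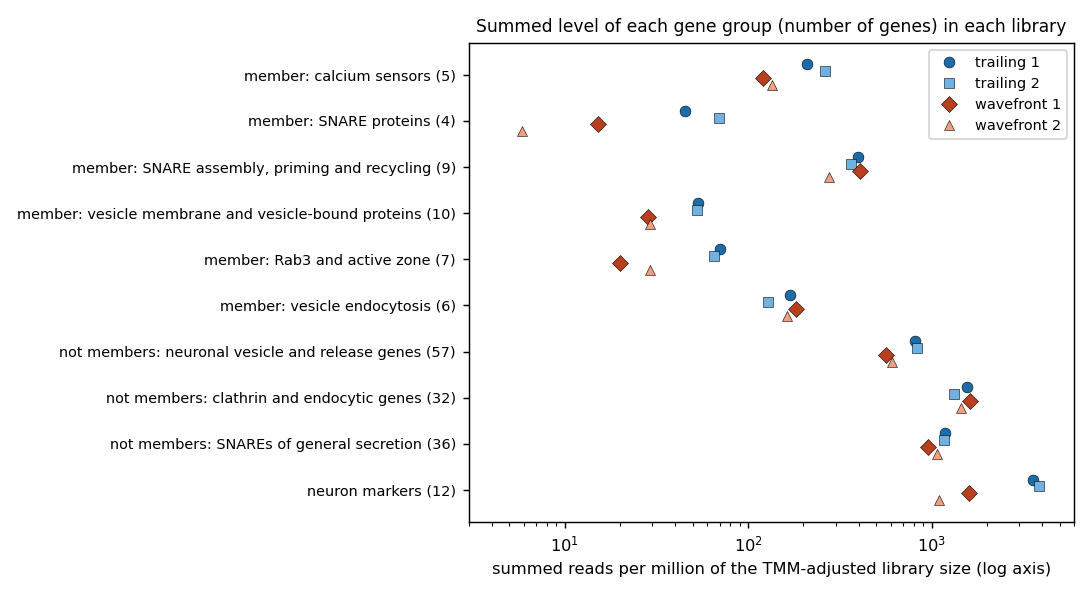
Summed level of each role group, of the 3 other vesicle-traffic lists and of 12 neuron markers in each library, in reads-per-million of the TMM-adjusted library size (x axis, logarithmic), with the number of genes in brackets. The SNARE proteins, and Rab3 with the active zone, have both wavefront libraries to the left of both trailing libraries; SNARE assembly and endocytosis have them overlapping.

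Neuron markers were lower at the wavefront. The 12 neuron markers (among them Tubb3, Elavl3, Elavl4, Stmn2, Stmn3, Dcx, Nefl, Prph, Uchl1, Gap43 and Mapt) summed to 3579 and 3863 scaled CPM behind the front and to 1606 and 1093 at it. All 12 were tested by counts and 9 fell, where 1.34% of all genes tested were called lower. Elavl3, Stmn2, Stmn3, Dcx, Prph and Mapt cleared the read filter only through the trailing libraries. The count of 9 is therefore not support for the markers as a whole. Glia and Schwann precursor markers summed to 212 and 153 against 52.1 and 87.7 scaled CPM, with 3 of 6 at 0 in all libraries, S100b and Gfap among them. Gut mesenchyme markers ran the other way, at 169 and 166 against 386 and 958 scaled CPM, with Twist1 at 0 in all libraries. Of 3 tested genes Des and Col3a1 rose, where 0.399% of all genes tested were called higher. Des cleared the read filter only through the wavefront libraries. Sensory and sympathetic neuron markers, which would show other crest neurons in the sort, summed to 81.4 and 138 against 75.6 and 76.0 scaled CPM. In reads these sums were 43 and 66 against 45 and 13, and 3 of the 11 markers were at 0 in all libraries. Erbb3 is in both the crest and the glia list. The part of any of these cell types in the vesicle gene results was not tested.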

How the data were processed

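RNA from 4 libraries of sorted crest-derived gut cells (2 wavefront, 2 trailing, grouped by their titles) was analysed. Trizol served for RNA isolation and the Nextera XT kit, which does not mark strand, for libraries, per the labels' protocols. The submitters' processing notes name STAR 2.5.2b as well as featureCounts, DESeq2, FastQC 0.11.9 and bcl2fastq 2.17, and the build GRCm38. Neither the annotation release nor the handling of multiple hits is given there. Overlapping genes may share reads.

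The authors deposited CPM for each library, per the file headers. All values (100%) were whole multiples of 1 read within 0.01 reads, and the recovered reads were tested as counts. The deposited BaseMean is a signal, the mean of reads over size factors, and was not used. The authors' fold changes and standard errors are log2 values, the deposited Wald statistic is a score, and the deposited p-value is not adjusted, all per the file headers. Adjustment was by Benjamini-Hochberg here.

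Of 27606 rows, 428 repeats of an Entrez identifier were dropped; 958 genes had no symbol. The planned test was limma-trend (limma 3.58.1), fitted to log2(CPM + 1) where a gene's mean exceeded 1 CPM. The second test, added because whole reads were recovered, was edgeR 4.0.16 with TMM factors and filterByExpr at 10 reads, and the standard error is the fold change over the square root of F. DESeq2 1.42.0 (R 4.3.3) was an alternative. All tests were two-sided, and the edgeR, limma and DESeq2 fits were checked on simulated counts. Scaled CPM use TMM-adjusted library sizes of the edgeR fit. Ratios of reads carry 95% exact binomial intervals, which cover counting error only, since reads had no molecular identifiers. Full values were given, by rule, for members past the count test and for tested members with most reads or with groups that do not overlap. Of the other vesicle genes, those past the test and the 2 with most reads in each list were named; members under the filter were given by reads. Some genes of these lists enter the counts and sums but are not reported here by name. The members and all lists were chosen with earlier results of these data known. Gene spans are those of GENCODE M21 on the same build.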

Additional observations from a re-analysis of the deposited data

How the results depend on the processing

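Depth sets the limit: 33 of 42 members were under the read filter, and wavefront 2 had 114972 reads outside ribosomal RNA. In limma the number of genes called, 0, became 3 with a pseudocount of 5, 5 with no filter on low values, 36 for genes with a mean CPM above 10, 9 with DESeq2's size factors and 52 with the replicate block. The members called by limma were 1 for a mean CPM above 10 (Syt1) and 2 with the replicate block (Syt1 and Stx1a). The number of genes called by the count test, 100, became 14 in DESeq2, 61 with the replicate block, 10 after thinning to equal depth, 13 by the authors' deposited p-values adjusted here, and 40 to 143 with 1 library left out, where the lone library of a group is assumed to vary like the other group. Of the 100, 23 were higher and 77 lower, and with scaling by library size alone 9 were higher and 64 lower. The 2 members called became 1 (Syt1) with at least 50 reads in all, with ribosomal RNA left out and with the replicate block, 0 in DESeq2, after thinning and by the authors' p-values, and 0 to 1 with 1 library left out. The 2 other vesicle genes called became 1 with library size alone, with ribosomal RNA left out and with the replicate block, 0 in DESeq2, after thinning and by the authors' p-values, and 0 to 1 with 1 library left out. Syt1 passed in 9 of 13 alternatives, Stx1a in 3 of 9 and Slc18a3 in 8 of 11, with log2 fold changes below 0 in each of them. The numbers of alternatives differ because settings that filtered a gene out or gave it no adjusted p are not counted for it. The members' median was -0.29 in the main fit, -1.51 with no filter and -1.44 in DESeq2. It was -1.48 to -0.12 with 1 library left out and 0.0062 for genes with 50 reads or more. Each median is over the members that had a fold change in that setting. The set of members differs between settings, so these medians do not show how far any member moved. Signs changed for genes near 0: with 1 library left out Napa ranged from -0.86 to 0.31, Dnajc5 from -0.38 to 0.43 and Lin7c from -0.22 to 0.34. Dnajc5 was at -0.089 with library size alone. Lin7c was at -0.21 with library size alone, -0.0078 with 50 reads or more, -0.00064 with the replicate block and -0.021 after thinning. The labels do not say whether libraries with the same number were paired, so the block tests no known pairing. The deviations of same-numbered libraries had a correlation of 0.0589 over genes, and those of crossed numbers -0.0589. With 2 libraries in each group these values are opposite by construction, so they cannot show whether libraries were paired. The cause of these changes was not tested. The counts over members under the filter were examined under alternatives chosen after seeing the data, and the 17 members at least 2-fold lower became 13 to 18. The 15 members with both trailing libraries above (23.8% of genes of like depth) became 17 to 18 with 1 library left out, where the share of genes rose to 33.7 to 46.3%.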

Other observations

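Some genes from the list of neuronal vesicles and release, with too few reads for the count test, had nearly all their reads in the trailing libraries. Sncg, gamma-synuclein, had 6 and 11 trailing reads and 0 and 0 at the wavefront. Against a floor of 3 reads over the group this is 4.32-fold lower, leaving out counting error in the trailing reads. Sncg passed in edgeR only with no filter (adjusted p = 0.0174). Sncb, beta-synuclein, had no read. Rabac1, the prenylated Rab acceptor that binds Rab3a, had 8 and 8 against 0 and 1. Lin7a, a scaffold of neuronal synapses, had 7 and 3 against 0 and 0, where its relative Lin7c had 104 and 65 against 103 and 28. In Sncg, Rabac1 and Lin7a both trailing libraries lay above both wavefront libraries. They were singled out after their values were seen.

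Of 10 further synaptotagmin genes 3 had no read. Syt9 had 3 and 4 trailing reads and Syt17 had 4 and 1, both with 0 and 0 at the wavefront, while Syt6 had 5 and 1 against 4 and 1. No read was found for transporters that fill vesicles with glutamate (Slc17a7, Slc17a8) or GABA (Slc32a1). Slc18a2, the vesicular monoamine transporter, had 21 and 25 trailing reads against 20 and 4 (change on the log2 scale -0.57 ± 0.43, edgeR adjusted p = 0.744, not passed).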
